A study of Mus musculus with 6 samples.

Results

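Expression of 8 genes that sense or clear transmitters was examined in cultured mouse microglia, the resident macrophages of the brain. They were 3 families of amine receptors (the serotonin receptors Htr2b and Htr7, the histamine receptors Hrh1 and Hrh2, and the β1-adrenergic receptor Adrb1), the GABA-B receptor subunit Gabbr1, the glutamate transporter Slc1a3 and acetylcholinesterase (Ache). They are 8 of the 41079 genes in the deposited tables and were picked by symbol. Htr2b and Ache were selected on their fold change in these same libraries, where they took places 23 and 26 from the largest among 14618 genes tested, and all 8 were chosen with results of these libraries known. Their differences between conditions are therefore given as values without a test.

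RNA was sequenced in 6 libraries of microglia from C57Bl/6N mice aged 1 to 3 days. Mixed glia from pooled neonatal brains were grown in flasks fed with L-929 conditioned medium, a source of M-CSF, the microglia were shaken off and seeded, and all of them met serum briefly while they adhered. The 3 control cultures were then kept in serum-free DMEM/F12. The 3 optimized cultures had human TGF-β1, IL-34 and CX3CL1 in the same medium, each at 100 ng/mL, and these are the only agents the labels name. By the methods of the study, the medium also held cholesterol and insulin-transferrin-selenium and the wells were coated with collagen IV. The agents cannot be told apart in this design, the cytokines were human proteins on mouse cells, and the hours in the final medium are not given for these libraries in the sources used here. The libraries are described as biological replicates, but nothing says which harvest each came from, so p-values measure the spread between these samples.

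Biogenic amines, acetylcholine, GABA and glutamate are released by neurons and other cells, and microglia carry receptors for several of them. Most of these receptors are coupled to G proteins. Gq-coupled receptors, such as HTR2B and HRH1, raise intracellular calcium through phospholipase C. Gs-coupled receptors, such as HTR7, HRH2 and ADRB1, raise cyclic AMP, and Gi-coupled receptors such as the GABA-B receptor lower it. Transporters and enzymes such as SLC1A3 (also called GLAST or EAAT1) and acetylcholinesterase end the signal by removing the transmitter.

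Count totals lay between 20628148 and 27261839, so that 3 counts, taken as the floor, corresponded to between 0.11 and 0.145 CPM (a gene's count scaled to a common library size) in a library. The summed CPM of 8 microglial markers was 7977 to 8606 in the control and 12440 to 15940 in the optimized libraries, and all 8 were detected. The sum of 5 oligodendrocyte precursor genes was 37.9 to 50.1 in control and 445 to 630 in optimized libraries. That difference rested on Cspg4, with 31.2 ± 7.21 against 510 ± 95.4 CPM (SD, n = 3 each). The control and optimized means were 3.09 and 3.57 CPM for Pdgfra and 3.07 and 3.83 for Vcan. For Ptprz1 they were 4.82 and 4.36 CPM and for Gpr17 0.787 and 0.970. Optimized library 1 stood apart. It held 115 genes with at least 10 counts that had no more than 1 count in any other library, against 0 to 5 such genes in the others, and none of the 8 genes was among them. Optimized library 3 had the highest sum of 6 fibroblast genes, with 149 CPM against 28.9 to 46.5 in the other 5. In bulk RNA, fewer cells of a type and less RNA per cell cannot be told apart.

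Htr2b lies on the minus strand of chromosome 1 of GRCm39, from 86026748 to 86039736, and its canonical transcript has 4 exons, 3 of them coding. Ache lies on the plus strand of chromosome 5 from 137285781 to 137292728, with 5 canonical exons, 4 of them coding. Since these were the genes with the large differences, the 250 bases before their outermost annotated start in GENCODE M39 are shown, 5′ to 3′ on the gene's strand. The capitals mark the letters CAGAC (part of the element bound by SMAD proteins), GAGGAA (the core of the PU-box) and TGTGGT (the core bound by RUNX proteins), each searched for on both strands. The Htr2b window is chr1:86039737-86039986 (minus strand) and the Ache window is chr5:137285531-137285780 (plus strand).
Htr2b: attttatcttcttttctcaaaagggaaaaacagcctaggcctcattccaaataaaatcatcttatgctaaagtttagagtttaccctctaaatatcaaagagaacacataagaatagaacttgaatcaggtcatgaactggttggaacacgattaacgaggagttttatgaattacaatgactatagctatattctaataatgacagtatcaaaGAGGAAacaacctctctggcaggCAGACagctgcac
Ache: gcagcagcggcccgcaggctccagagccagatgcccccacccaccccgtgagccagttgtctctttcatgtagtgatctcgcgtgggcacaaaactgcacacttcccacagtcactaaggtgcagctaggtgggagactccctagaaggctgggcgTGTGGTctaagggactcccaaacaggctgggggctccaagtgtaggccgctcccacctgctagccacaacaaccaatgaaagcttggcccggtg

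The Htr2b window held CAGAC starting 13 bases and GAGGAA starting 36 bases before the start, and no TGTGGT. The Ache window held TGTGGT starting 94 bases before the start and neither of the other motifs. Of 21747 windows of this length before protein-coding genes, 41.9% held CAGAC, 22.9% GAGGAA and 13.8% TGTGGT, so such matches occur in many other promoters. The windows also differed in base composition, with 35.2% G and C for Htr2b and 60.8% for Ache, against a median of 51.2%. Among the other genes, Htr7, Gabbr1 and Slc1a3 had CAGAC in the same window, Hrh2 had GAGGAA, and Hrh1 and Adrb1 had none of the motifs.

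Htr2b, a Gq-coupled serotonin receptor, had 31, 83 and 69 counts in control libraries 1 to 3 and 1350, 1616 and 1473 counts in optimized libraries 1 to 3. After TMM scaling these were 1.36, 3.39 and 2.53 CPM in the control and 63.9, 68.8 and 71.3 CPM in the optimized libraries. All 3 optimized libraries were thus far above all 3 controls, and the optimized libraries lay close together while the controls differed more. The means were 2.42 ± 1.02 CPM (SD, n = 3) and 68.0 ± 3.73 CPM (SD, n = 3), which is 27.8-fold higher in the optimized cultures, with a log2 fold change (log2FC) of 4.80 ± 0.23, where the error is the standard error (SE) of the edgeR fit. The coefficient of variation was 42.1% between control libraries, where counting alone would give 12.8%, and 5.49% between optimized libraries, where counting alone would give 2.6%. Control library 1 was the lowest, and leaving it out gave a log2 fold change of 4.52. In the ranking of all tested genes by FPKM within a library, Htr2b moved from percentiles of 6.38 to 13.8 in the control to 62.0 to 64.2 in the optimized libraries.

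The whole Htr2b gene lies inside Psmd1, a proteasome subunit gene on the opposite strand of chromosome 1 from 85992097 to 86070048. In GENCODE M39 the exons of the 2 genes share 252 bases, which is 11.3% of the Htr2b exon bases, and their canonical transcripts share 0 bases. Whether the authors counted by strand is not given in the sources used here, and without strand reads of the shared part cannot be told apart. Psmd1 had 3799, 3910 and 4721 counts in the control and 3744, 4218 and 4023 in the optimized libraries. Its level was 166 ± 6.67 CPM in the controls and 184 ± 9.41 CPM under the optimized conditions (SD, n = 3 each), with a log2FC of 0.15 ± 0.082 (SE) and an adjusted p-value of 0.22 by edgeR's quasi-likelihood test, which did not pass the threshold of 0.05. As a share of the Psmd1 count in the same library, the Htr2b count was 0.816%, 2.12% and 1.46% in the control and 36.1%, 38.3% and 36.6% in the optimized libraries. The plot of raw counts at both loci shows this side by side.

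**Figure D1:**
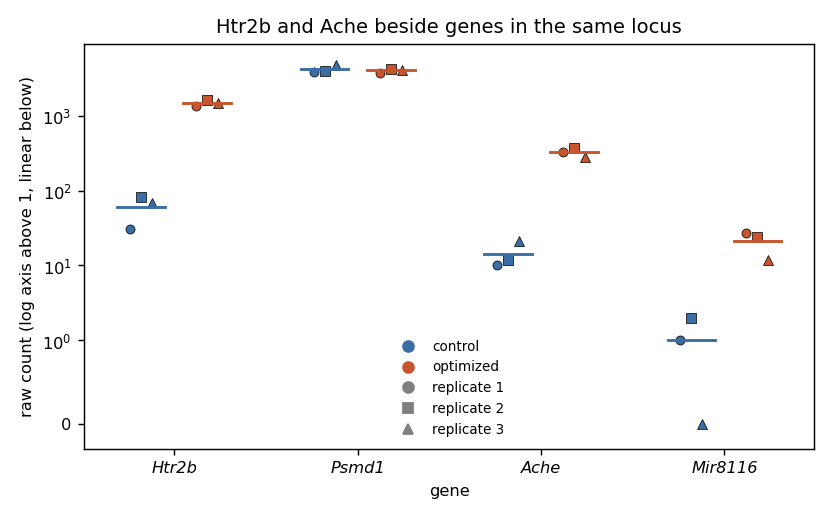
Raw counts per library (log axis above 1, linear below) of Htr2b and Psmd1, which overlap on chromosome 1, and of Ache and Mir8116, which lies in an Ache intron; blue is control, orange is optimized, shapes are replicate numbers and bars are group means. Psmd1 counts lie between 3744 and 4721 in all 6 libraries, while those of Htr2b, Ache and Mir8116 are higher in every optimized than in every control library.

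The other serotonin receptor chosen, Htr7, which is Gs-coupled, was listed at 0 in all 6 libraries, so that no fold change can be given. It lies on the minus strand of chromosome 19 from 35935818 to 36035177. A count of 0 allows up to 0.145 CPM in optimized library 3, the library of the smallest scaled size, by the floor of 3 counts, which covers counting error only. None of the other 12 serotonin receptor genes had enough counts to be tested, and 8 of them were also at 0 in every library. Htr2a, which is Gq-coupled like Htr2b, had 10, 14 and 10 counts in the control and 0, 1 and 7 in the optimized libraries. Among the serotonin receptors, Htr2b was thus the only gene with enough counts in these libraries.

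Hrh1, a Gq-coupled histamine receptor on chromosome 6 (114374478 to 114460261, plus strand), had 6, 15 and 5 counts in the control and 16, 24 and 19 in the optimized libraries. This was 0.262, 0.612 and 0.183 CPM against 0.758, 1.02 and 0.919 CPM, with no overlap between the groups. The means were 0.352 ± 0.228 and 0.900 ± 0.133 CPM (SD, n = 3 each), a log2FC of 1.35 ± 0.47 (SE). Control library 2 was high for its group, and the log2FC without it was 2.00. Hrh1 had enough counts for the test through the optimized libraries alone, since 3 of 3 optimized but 1 of 3 control libraries reached the 0.446 CPM that the filter on low counts asked for.

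Hrh2, a Gs-coupled histamine receptor on chromosome 13 (54345993 to 54390199, plus strand), went the other way. It had 26, 29 and 33 counts in the control and 5, 11 and 7 counts in the optimized libraries. The control values of 1.14, 1.18 and 1.21 CPM were close together and all lay above the optimized values of 0.237, 0.468 and 0.339 CPM. The means were 1.18 ± 0.036 and 0.348 ± 0.116 CPM (SD, n = 3 each), which is 3.32-fold lower in the optimized cultures, with a log2FC of -1.73 ± 0.36 (SE). Hrh2 passed the filter through the control libraries alone, as 0 of 3 optimized libraries reached 0.446 CPM. The other histamine receptor genes, Hrh3 and Hrh4, had at most 2 counts in a library. Hnmt, which encodes the enzyme that methylates histamine, had 4.27 ± 0.236 CPM in the controls and 4.09 ± 0.321 CPM under the optimized conditions and did not pass the test (log2FC -0.06, adjusted p-value 0.83, edgeR). Of 5 mast cell genes, Mcpt4, Tpsb2 and Fcer1a were at 0 in every library, and the sum of the list was at most 0.474 CPM.

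Adrb1, the Gs-coupled β1-adrenergic receptor on chromosome 19 (56710631 to 56721545, plus strand), had 19, 20 and 18 counts in the control and 10, 19 and 15 in the optimized libraries. Its values of 0.831, 0.816 and 0.659 CPM in the control and 0.474, 0.809 and 0.726 CPM in the optimized libraries overlapped. The means were 0.768 ± 0.095 and 0.669 ± 0.175 CPM (SD, n = 3 each), and the log2FC was -0.19 ± 0.35 (SE). The difference lay within the spread of the optimized libraries and was 0.0061 on the log2 scale without optimized library 1.

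Gabbr1, the subunit of the GABA-B receptor that binds GABA, lies on chromosome 17 (37356703 to 37387265, plus strand). It had 34, 38 and 41 counts in the control and 83, 37 and 65 counts in the optimized libraries. The controls, at 1.49, 1.55 and 1.50 CPM, hardly differed, whereas the optimized libraries had 3.93, 1.58 and 3.14 CPM. Optimized library 2 was therefore at the level of the controls, and the other two were above them. The means were 1.51 ± 0.033 and 2.88 ± 1.20 CPM (SD, n = 3 each), with a log2FC of 0.92 ± 0.33 (SE), which was 0.63 without optimized library 1 and 1.22 without optimized library 2. In the deposited FPKM, optimized library 2 fell below all 3 controls, at 0.238 against 0.251 to 0.277. Gabbr2, which encodes the partner subunit that couples the receptor to G proteins, had at most 3 counts in any library, with totals too low to test.

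Slc1a3, a sodium-dependent glutamate transporter best known from astrocytes, lies on chromosome 15 (8663604 to 8741595, minus strand). It had 144, 152 and 139 counts in the control and 64, 104 and 101 counts in the optimized libraries, or 6.30, 6.20 and 5.09 CPM against 3.03, 4.43 and 4.89 CPM. The groups did not overlap, but control library 3 and optimized library 3 were close. The means were 5.86 ± 0.671 and 4.12 ± 0.967 CPM (SD, n = 3 each), 1.42-fold lower in the optimized cultures, with a log2FC of -0.51 ± 0.20 (SE). Without optimized library 1, the lowest, it was -0.33. The sum of 8 astrocyte markers was also lower, going from 28.5 to 31.7 CPM in the control to 20.9 to 22.5 CPM in the optimized libraries, with Gjb6 at 0 throughout. That difference rested on Aldh1l1, with 16.5 ± 1.47 against 4.64 ± 0.228 CPM. Without Aldh1l1, a choice made after its values were seen, the other 7 markers summed to 12.2 to 16.5 CPM in the control and 16.1 to 17.8 CPM in the optimized libraries, with Gja1 at 5.64 ± 1.22 against 7.94 ± 0.684 CPM and Gfap at 4.18 ± 0.788 against 4.68 ± 0.627 CPM. The part of astrocyte RNA in the Slc1a3 difference was not tested.

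Ache, the enzyme that hydrolyses acetylcholine, had 10, 12 and 21 counts in control libraries 1 to 3 and 330, 369 and 279 counts in optimized libraries 1 to 3. This was 0.437, 0.489 and 0.769 CPM in the control and 15.6, 15.7 and 13.5 CPM in the optimized libraries. Every optimized library was far above every control, with control library 3 the highest of its group and optimized library 3 the lowest of its own. The means were 0.565 ± 0.178 and 14.9 ± 1.26 CPM (SD, n = 3 each), which is 25.9-fold higher, with a log2FC of 4.69 ± 0.21 (SE). Between controls the coefficient of variation was 31.5%, where counting alone would give 26.4%. Between optimized libraries it was 8.40%, against 5.54%. By FPKM, Ache moved from percentiles of 3.15 to 6.36 in the control to 38.9 to 42.3 in the optimized libraries.

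None of the other 6 genes for the synthesis, transport, breakdown and anchoring of acetylcholine had enough counts to be tested. Chat, which encodes the synthesizing enzyme, and the transporters Slc18a3 and Slc5a7 were at 0 in every library, and Bche, the related butyrylcholinesterase, had at most 7 counts. Prima1, which anchors acetylcholinesterase in the membrane, had 2, 1 and 7 counts in the control and 1, 5 and 6 in the optimized libraries. Colq, which encodes the collagen tail that anchors the enzyme in the matrix, had 4, 2 and 5 counts in the control and 0 in all 3 optimized libraries. Ache is also known from red cell precursors and megakaryocytes. The 4 haemoglobin genes in an erythroid list of 6 were at 0 in every library, and that list summed to at most 0.616 CPM. A megakaryocyte list of 5 genes summed to 139 to 173 CPM in the controls and 177 to 294 CPM in optimized libraries. That difference rested on Pf4, with control and optimized means of 157 and 227 CPM. The means were 0.596 and 0.62 CPM for Itga2b and 1.39 and 1.18 for Gp1ba. For Gp9 they were 0.066 and 0.235 CPM and for Ppbp 0.23 and 0.14. The sum of 6 neuron genes was 3.075 to 4.72 CPM in the controls and 5.30 to 6.34 CPM in optimized libraries. Control and optimized means were 0.227 and 1.135 CPM for Nefl, 2.06 and 2.42 for Map2, and 0.996 and 1.62 for Tubb3. For Rbfox3 they were 0.456 and 0.549 CPM, while Snap25 and Syt1 had at most 2 counts in a library. Summed over 5 oligodendrocyte genes, CPM was 125 to 140 in the controls and 156 to 190 in optimized libraries. The part of megakaryocyte, neuron or oligodendrocyte RNA in the Ache values was not tested.

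The microRNA gene Mir8116 lies in the last intron of Ache (137292042 to 137292138, plus strand), shares 0 exon bases with it, and was chosen after its values were seen. It had 1, 2 and 0 counts in the control and 27, 24 and 12 in the optimized libraries. The ratio of the scaled totals was 24.0, with a 95% counting interval of 7.86 to 120. As it sits in Ache and was picked on this difference, no test is given. Since it lies on the same strand in an intron, reads of unspliced Ache RNA and of Mir8116 cannot be told apart.

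By edgeR's adjusted p-value under 0.05, 2 of the 8 genes would be counted as higher (Htr2b and Ache) and 1 as lower (Hrh2), with 7 tested. This is printed beside the share over all 14618 genes, of which 29.8% were called, 14.7% higher and 15.2% lower. Every optimized library was above every control for Htr2b, Hrh1, Gabbr1 (by a narrow margin) and Ache, and below for Hrh2 and Slc1a3, while Adrb1 overlapped. Over all genes tested, 21.4% lay above without overlap and 22.5% below. As the genes were picked on this comparison, nothing is read from these counts. The plot by library shows the values of the 7 genes with counts.

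**Figure D2:**
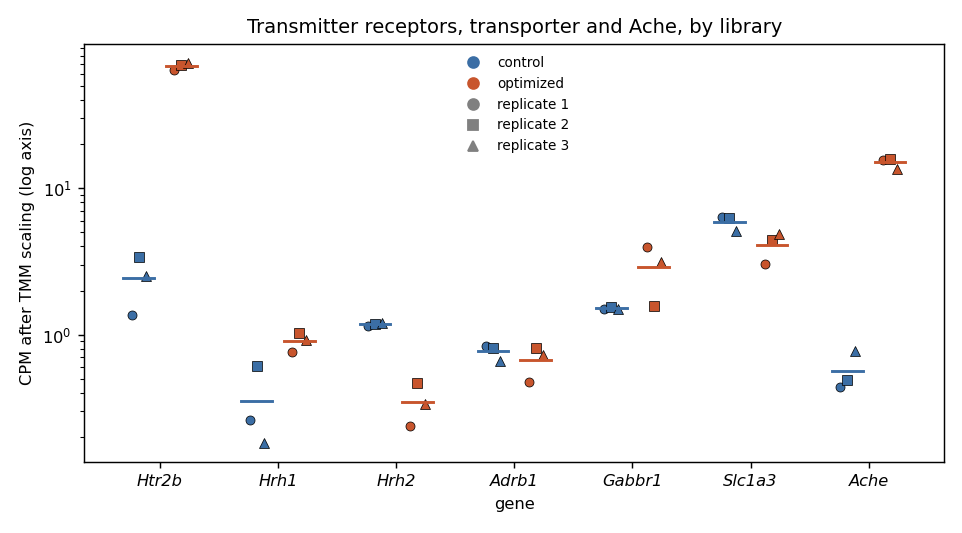
CPM after TMM scaling (log axis) of the 7 genes with counts in control (blue) and optimized (orange) libraries, with shapes for replicate numbers and bars for group means. Htr2b goes from between 1.36 and 3.39 to between 63.9 and 71.3 CPM and Ache from below 1 to between 13.5 and 15.7 CPM, while the other 5 genes stay within 0.183 to 6.30 CPM; Htr7, at 0 throughout, is not drawn.

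Levels were compared between genes per length, with the FPKM values that the authors deposited. In the control cultures Slc1a3 was the highest of the 8, at 0.896 ± 0.133 FPKM (SD, n = 3). Htr2b followed with 0.312, Gabbr1 with 0.264 and Adrb1 with 0.258 FPKM, and among these 3 the ranges of neighbours overlapped. Hrh2 at 0.171 was apart from those, and Ache at 0.120 and Hrh1 at 0.103 FPKM overlapped each other. In the optimized cultures Htr2b was the highest at 7.96 ± 0.435 FPKM and Ache the next at 2.91 ± 0.241 FPKM (SD, n = 3 each), and neither overlapped with a neighbour. Below them Slc1a3 at 0.568, Gabbr1 at 0.463, Hrh1 at 0.236 and Adrb1 at 0.202 FPKM each overlapped with the next, and Hrh2 was the lowest expressed of the 7 at 0.0455 FPKM.

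These levels depend on the gene lengths used. The deposited FPKM and counts imply a length of 7.98 to 8.46 kb for Htr2b if the count totals were used as depth, whereas its GENCODE M39 exons add up to 2.23 kb, so the authors' model of Htr2b was not this one, and its start and its overlap with Psmd1 may differ from those given above. For Ache the implied length was 4.80 to 5.09 kb against 5.22 kb for all exons and 2.42 kb for the canonical transcript. With canonical lengths, Htr2b had 1.14 CPM per kb in control and 32.0 in optimized cultures, and Ache 0.234 and 6.18. Hrh2, at 0.418 CPM per kb, was then above Gabbr1, at 0.225, in the control, whereas Htr2b was still the highest in optimized cultures. In the control, Slc1a3 had the highest mean (1.40), but its range of 1.21 to 1.50 CPM per kb lay within that of Htr2b, 0.637 to 1.59, so the order of these genes in the control depends on the lengths used.

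The genes whose pattern over the 6 libraries was most like that of Htr2b, by the Euclidean distance of centred log2 CPM among 9842 genes with a mean of at least 5 CPM, were Gcnt2 (distance 0.839), Olfml3 (0.863) and Pmepa1 (0.865). For Ache they were Pmepa1 (0.544), Olfml3 (0.568) and Tmeff1 (0.635). Pmepa1, which encodes a feedback inhibitor of TGF-β signalling, had 344, 423 and 437 counts in the control and 7748, 9486 and 7598 in the optimized libraries. Tmeff1 had 9, 13 and 21 counts against 218, 253 and 227, a scale of counts near that of Ache. The distance takes in the difference between conditions that Htr2b and Ache were chosen on, so likeness here is a description.

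Beyond the 8 genes, 140 genes of the serotonin, histamine, catecholamine, acetylcholine, GABA and glutamate families were listed by family name. Of these, 36 were at 0 in every library and 28 had enough counts to be tested. Among the 28, 4 rose, 3 fell and 21 did not pass the test, which is 25% called against 29.8% of all genes, and their median log2 fold change was 0.15 against 0.0079 over all genes. Of the 4 that rose, 3 (Gabre, Chrnb1 and Grik2) would not have had enough counts through the control libraries alone. They reached the filter in 0, 1 and 2 of 3 control libraries, against 3 of 3 optimized libraries each. The count of rises is therefore no more than a description, and with at least 10 counts in every library it was 1. The 4 also became 2 without control library 2, control library 3 or optimized library 3. Of 94 receptor genes 13 were tested, and of 46 genes for synthesis, transport and breakdown 15 were tested. Most transmitter receptor genes thus had too few counts in these microglia for any comparison.

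Gabre, which encodes the ε subunit of the GABA-A receptor, rose from 2, 0 and 0 counts to 13, 12 and 14 counts. The ratio of the scaled totals was 22.3, with a 95% counting interval of 5.78 to 191. Gabre entered the test through the optimized libraries alone, with 0 of 3 control libraries at the 0.446 CPM of the filter, so no p-value is given. Grik2, a kainate receptor subunit, rose from 6, 12 and 16 to 40, 36 and 38 counts, with a log2FC of 1.95 ± 0.35 (SE). Chrnb1, a nicotinic receptor subunit, rose by 1.58 on the log2 scale (standard error 0.47) from 12, 6 and 7 to 25, 14 and 27 counts. Its call was lost without control library 2, control library 3 or optimized library 3. The Grik2 call was lost on log2(FPKM + 1) alone, by limma. Chrnb1 reached the filter in 1 of 3 control libraries and Grik2 in 2 of 3, where the filter asked for 3 libraries. Both thus needed the optimized libraries, in which they were higher, to enter the test, so no p-value is given. These receptor genes thus reached at most 40 counts in a library.

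Among genes that handle glutamate, Slc7a11, the cystine/glutamate exchanger, fell from 491, 559 and 591 counts to 253, 147 and 209 counts, a log2FC of -1.22 ± 0.20 (SE, adjusted p-value 0.0010, edgeR). Glud1, the mitochondrial glutamate dehydrogenase, fell by 0.50 on the log2 scale (standard error 0.080, adjusted p-value 0.00099, edgeR). Glul, glutamine synthetase, had the highest CPM of the transmitter lists, with 405 ± 16.9 CPM in the controls and 492 ± 39.4 CPM under the optimized conditions (SD, n = 3 each). Its rise of 0.28 on the log2 scale had an adjusted p-value of 0.046 (edgeR), which was above 0.05 in 10 of 15 alternative settings. Slc1a2, the other main glial glutamate transporter and a member of the astrocyte list, had 29, 22 and 30 counts in the control and 15, 18 and 14 in the optimized libraries and did not pass the test (log2FC -0.59 ± 0.31 SE, adjusted p-value 0.19, edgeR).

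**Figure D3:**
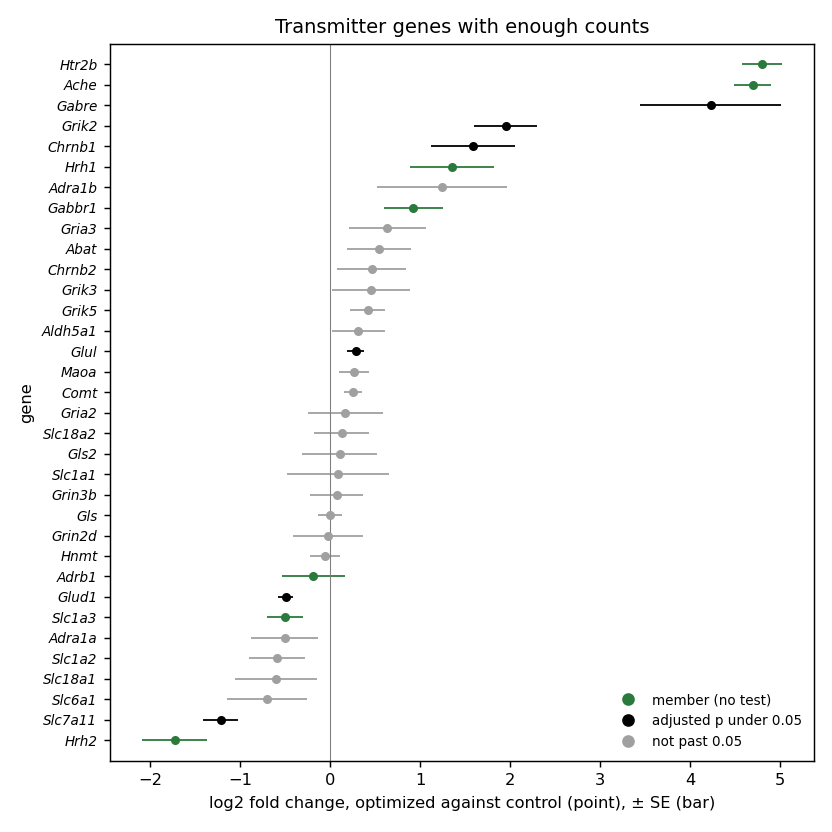
Log2 fold change of optimized against control cultures (x axis; points, with bars for ± 1 standard error) of listed transmitter genes that were tested and of the 7 chosen genes with counts. Green points are the chosen genes, for which no test is given, black points passed an adjusted p-value of 0.05 and grey points did not. Gabre, Chrnb1 and Grik2 are black but needed the optimized libraries to reach the filter, so their colour is a description. Htr2b at 4.80 and Ache at 4.69 lie at the top beside Gabre at 4.23, and Hrh2 at -1.73 lies at the bottom.

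Signalling genes downstream of G protein-coupled receptors were listed by family as well. Of 69 genes, 57 were tested, 15 rose and 16 fell, which is 54.4% called against 29.8% of all genes, and the median log2 fold change was -0.0048. The signalling genes and all genes were not matched for expression level, so nothing is read from the difference between these shares. The 16 that fell became 9 without control library 1 and 10 without optimized library 3. Rgs18, 1 of the 16, would not have had enough counts through the optimized libraries alone. With library size alone as the scaling, 11 were higher and 19 lower, and no gene called in the main comparison changed sign under any setting. Of the G protein subunits and effectors, 9 were up and 2 down of 24 tested, and 6 up and 3 down with library size alone. Receptor kinases, arrestins and RGS proteins, which end or dampen receptor signals, had 3 up and 8 down of 16, which became 3 up and 3 down without control library 1 or without optimized library 3, and 3 up and 4 down or 5 down without control library 2 or 3. Cyclic AMP readers and phosphodiesterases had 3 up and 6 down of 17.

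The Gα subunits that these receptors use were picked after their values were seen and are given without a test. Gnas, which encodes the Gs α subunit used by HRH2 and ADRB1, had 902 ± 64.8 CPM in the controls and 1479 ± 237 CPM under the optimized conditions (SD, n = 3 each), a log2FC of 0.71 ± 0.13 (SE). Gnaq and Gna11, which encode the Gq and G11 α subunits used by HTR2B and HRH1, had log2FC values of 0.0020 ± 0.11 and -0.04 ± 0.10 (SE). Of the Gi and Go α subunits that a GABA-B receptor can use, Gnai1 had a log2FC of 0.34 ± 0.51, Gnai2 of -0.06 ± 0.10 and Gnai3 of -0.0048 ± 0.084 (SE). Gnao1 had 54, 47 and 64 counts in the control and 89, 73 and 76 counts in the optimized libraries, a log2FC of 0.73 ± 0.21 (SE).

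The largest rises in the signalling lists were those of Rgs16, Pde4d and Adcy3. Rgs16, a GTPase activator for Gi and Gq α subunits, rose from 41, 37 and 70 to 335, 520 and 433 counts, with a log2FC of 3.32 ± 0.21 (SE, adjusted p-value 2.2e-06, edgeR). Pde4d, a phosphodiesterase that breaks down cyclic AMP, rose by 2.29 (standard error 0.21) and Adcy3, an adenylyl cyclase that makes it, by 1.33 (standard error 0.077) on the log2 scale. The largest falls were those of the phosphodiesterases Pde7b, with a log2FC of -2.39 ± 0.30 (SE), and Pde4b, with -1.50 (standard error 0.14), and of Rgs18, with -1.64 (standard error 0.43). Rgs18 went from 32, 45 and 23 to 13, 7 and 8 counts, or 1.40, 1.84 and 0.842 CPM against 0.616, 0.298 and 0.387 CPM. It thus needed the control libraries, in which it was higher, to reach the 0.446 CPM of the filter, so no p-value is given. Its call was lost without any 1 of control library 1, control library 2, optimized library 2 or optimized library 3. The phosphodiesterase genes thus moved in both directions, with Pde4d higher and Pde4b lower within the same subfamily.

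**Figure D4:**
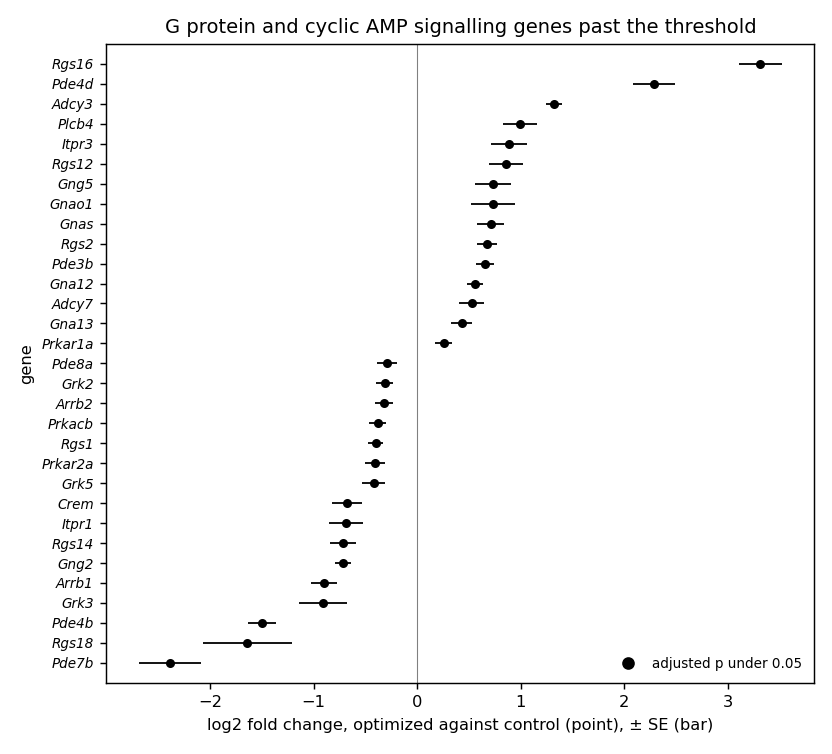
Log2 fold change of optimized against control cultures (x axis; points, with bars for ± 1 standard error) of the 31 G protein and cyclic AMP signalling genes with an adjusted p-value under 0.05. The 15 genes to the right of 0 reach up to Rgs16 at 3.32 and the 16 to the left down to Pde7b at -2.39. Rgs18 is drawn but needed the control libraries to reach the filter, so its place here is a description.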

How the data were processed

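Paired-end RNA-seq reads were mapped by the authors to mm39 (the build GRCm39) with HISAT2 and counted per gene with featureCounts in Galaxy. The deposited tables hold raw counts, made by the authors without normalization, and FPKM for 41079 genes and the same 6 libraries, 3 control and 3 optimized, grouped here by their labels. Tool versions, the annotation, whether strand was used and how reads shared by several genes were treated are not given in the sources used here. Over 11141 genes with at least 50 counts in every library, count divided by FPKM departed by at most 5.63e-07% from a constant of the gene times a constant of the library. A TMM factor is also a constant of the library, so this cannot show whether FPKM carried one.

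The main test was edgeR's (version 4.0.16, R 4.3.3) quasi-likelihood test after filterByExpr and TMM scaling, over 14618 genes. Genes with a Benjamini-Hochberg adjusted p-value under 0.05 were called. An SE was obtained as |log2FC| over the root of F. The methods name no test for this comparison. The steps were run on simulated counts with the same dispersion for every gene. That setting is simpler than these data, so it does not show how well the steps perform here. The 8 genes and the gene lists were chosen with earlier results of these data known. Named were the 8 genes, listed genes whose exons overlap theirs, the transmitter genes called, other than 1 that is not reported here, the listed extremes, Gabbr2, the 3 largest and 3 smallest called signalling changes, and the 3 nearest patterns of Htr2b and Ache. Genes named for comparison beside these (the family members of a receptor or enzyme, Gα subunits, Mir8116 and Slc1a2) were picked afterwards. Exon overlap in GENCODE M39 was checked for the 8 genes only. Besides Psmd1, the listed genes overlapping an exon were Gm38875 (Hrh1), Gm16578 (Hrh2) and Gm31340 (Slc1a3), with at most 1 count in any library.

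As alternatives, scaling used relative log expression factors or library size only, the filter was dropped or asked for 10 counts in each library, replicate number entered as a block, each library was left out in turn, DESeq2 1.42.0 replaced edgeR, and limma 3.58.1 was run on log2(FPKM + 1), with and without a minimum mean FPKM of 1, and on log2(FPKM + 0.1). A difference of log2(FPKM + pseudocount) understates the change of low genes.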

Additional observations from a re-analysis of the deposited data

How the results depend on the processing

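The log2 fold changes of the 7 genes with counts kept their direction in every setting, other than Adrb1, which was 0.0061 without optimized library 1. Over the edgeR settings they were 4.52 to 5.10 for Htr2b, 4.54 to 4.99 for Ache, -2.02 to -1.52 for Hrh2, 0.63 to 1.22 for Gabbr1, -0.65 to -0.33 for Slc1a3 and -0.36 to 0.0061 for Adrb1. For Hrh1 they were 1.02 to 2.00, both with 1 control library left out. In the main comparison 2142 of 14618 genes were called higher and 2218 lower, and with library size alone 1513 and 3168. On log2(FPKM + 1) by limma they were 1472 and 3267. With a library left out, 3249 to 5234 genes were called in either direction. The fewest were called without control library 2 and the most without optimized library 1. By the same rule, 2 or 3 of the 8 would be called higher and 0 to 2 lower, from which nothing is read. Gabbr1 joined with DESeq2, without the filter and without optimized library 2, Hrh1 with the replicate block, on log2(FPKM + 0.1), and without control library 2 or optimized library 1, and Slc1a3 with library size alone and on log2(FPKM + 1). On log2(FPKM + 1) the values shrank, as the pseudocount requires, to 2.78 for Htr2b, 1.80 for Ache, 0.17 for Hrh1, -0.16 for Hrh2 and 0.20 for Gabbr1, and on log2(FPKM + 0.1) to 3.78 for Ache and -0.90 for Hrh2. The filter on a mean FPKM of at least 1 kept only Htr2b (2.78) and Ache (1.80) of the 8. With at least 10 counts in every library, Hrh1 and Hrh2 were dropped.

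The count of transmitter genes called higher, 4, was 1 with at least 10 counts in every library, 2 on log2(FPKM + 1), 0 with a mean FPKM of at least 1, by limma, and 2 to 5 with a library left out, the lowest without control library 2, control library 3 or optimized library 3. The 3 called lower were 3 or 4 throughout. Signalling genes called higher, 15, were 8 with a mean FPKM of at least 1, and those called lower, 16, were 9 to 17 with a library left out, with 9 without control library 1 and 10 without optimized library 3. With library size alone, the median of all genes was -0.12 on the log2 scale and 32.3% of called genes were higher, against 49.1% with TMM; limma on FPKM gave 28.4% to 31.3%.

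With the replicate block, 4924 genes were called against 4360 without it, and the block left 4 transmitter genes higher and 3 lower, with Htr2b at 4.83 and Ache at 4.69. Deviations of same-numbered libraries correlated at 0.277, -0.0128 and 0.186. Control libraries 2 and 3 did not correlate best with their own number, as control library 3 had 0.194 with optimized library 2. With 3 libraries per group, these correlations cannot decide whether same-numbered libraries shared a harvest. Hrh1, Hrh2, Adrb1, Gabre and Chrnb1, with at most 33 counts in a library, are limited by depth.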

Other observations

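Of the transmitter genes listed by family, 2 had at least 10 counts in optimized library 1 and 0 elsewhere. Aoc1, which encodes the diamine oxidase that breaks down histamine outside cells, had 135 counts there, and Gabrp, the π subunit of the GABA-A receptor, had 54 counts. Rgs5 had 37 counts in that library and at most 1 elsewhere. Hdc, the enzyme that makes histamine, had 40 counts in optimized library 1, 0 in the other optimized libraries, and 3, 6 and 10 in the controls. The 115 genes with at least 10 counts that were all but confined to this library held 3848 counts in all, 0.0187% of it, and the most abundant included Pigr, Sprr2f and Serpina1e. None of these genes had enough libraries with counts to be tested.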
